A study of Rattus norvegicus with 8 samples.

Results

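The genes described here are 10 that handle water and urea in the kidney or mark the segments that do so: 7 aquaporins (Aqp1, Aqp2, Aqp3, Aqp4, Aqp6, Aqp7 and Aqp11), the vasopressin V2 receptor Avpr2, the urea transporter Slc14a2 and uromodulin, Umod. They were chosen by symbol, and every probe whose RefSeq accession belongs to one of them was taken, which gave 14 probes of 41012 on the array and 10 genes of 14400 that could be named. The rats were females of the F344/NSlc strain, 10 weeks old. Right kidneys made up 4 samples after unilateral nephrectomy, the surgical removal of the opposite kidney, and 4 samples after a sham operation. The design text gives day 2 for sampling, while the sample names give day 2 for nephrectomized rats and day 1 for sham rats, so if the names hold, day and operation cannot be told apart. No genetic change is named for either group, and the names list a kidney per sample without naming the animal or the part of the kidney taken.

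Each RNA was labelled with Cy3 and hybridised to its own 1-colour Agilent rat array, so a value is the brightness of a probe and not a count of molecules. Values are given below as the relative signal, which is the processed signal divided by the 75th percentile of the same array, and differences as log2 of nephrectomized over sham. A probe's brightness depends on its sequence, so signals are compared between arrays and not between genes. The 75th percentile lay between 388 and 643, between 59.4% and 66.0% of probes were well above background, and no spot was saturated. Kidney markers were present: 11 of 11 proximal tubule markers, 10 of 10 intercalated cell markers, 5 of 5 podocyte markers and 7 of the 7 principal cell markers on the array passed the filter on dim probes. The arrays lay on 2 slides, with replicates 1 and 2 of each group on slide 1 and replicates 3 and 4 on slide 2, with nephrectomized kidneys at positions 3 and 4 and sham kidneys at positions 1 and 2 of each, so the groups and these positions cannot be told apart.

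The kidney recovers most filtered water in the proximal tubule and thin descending limb through Aqp1, and adjusts the rest in the collecting duct. There vasopressin binds Avpr2 on the blood side of principal cells, cyclic AMP rises, and Aqp2 moves from vesicles into the luminal membrane, while Aqp3 and Aqp4 let the water leave on the blood side. Urea carried by Slc14a2 products in the inner medulla adds to the gradient that draws the water, and the thick ascending limb, which makes uromodulin, builds that gradient by carrying salt without water.

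Several of these genes sit next to a relative in the genome. Aqp2 and Aqp6 lie on either side of Aqp5, Aqp3 and Aqp7 are neighbours, and Slc14a2 neighbours the urea transporter gene Slc14a1. RefSeq promoter sequence was found for 9 of the 10 genes, with 11 start sites. The 250 bases before the start are shown for Aqp2, Aqp3 and Aqp4, the water channels of the principal cell. Their signals correlated at r between 0.73 and 0.75 across the arrays, but no pair of the 10 genes passed after adjustment. Aqp3 with Avpr2 (0.74) and Aqp1 with Aqp7 (0.83) reached such values too, and the Avpr2 and Aqp1 windows are not shown. The sequences are from RefSeq on GRCr8, 5′ to 3′ on the strand named, and Aqp4 has 2 start sites.
Aqp2, chr7:132590036-132590285, plus strand: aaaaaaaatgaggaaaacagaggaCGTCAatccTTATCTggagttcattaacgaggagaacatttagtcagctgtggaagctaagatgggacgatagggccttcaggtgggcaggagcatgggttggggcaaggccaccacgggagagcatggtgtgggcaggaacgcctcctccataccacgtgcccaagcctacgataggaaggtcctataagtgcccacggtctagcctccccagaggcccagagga
Aqp3, chr5:61040684-61040933, minus strand: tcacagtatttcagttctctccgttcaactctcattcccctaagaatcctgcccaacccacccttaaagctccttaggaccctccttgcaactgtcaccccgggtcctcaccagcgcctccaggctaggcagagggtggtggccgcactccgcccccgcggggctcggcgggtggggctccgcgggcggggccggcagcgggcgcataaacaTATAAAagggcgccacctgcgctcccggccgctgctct
Aqp4, chr18:6797927-6798176, minus strand: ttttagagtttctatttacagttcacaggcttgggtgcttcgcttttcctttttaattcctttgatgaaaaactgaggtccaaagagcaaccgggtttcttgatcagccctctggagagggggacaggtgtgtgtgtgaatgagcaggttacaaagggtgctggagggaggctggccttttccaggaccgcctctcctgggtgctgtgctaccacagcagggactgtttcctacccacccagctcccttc
Aqp4, chr18:6798843-6799092, minus strand: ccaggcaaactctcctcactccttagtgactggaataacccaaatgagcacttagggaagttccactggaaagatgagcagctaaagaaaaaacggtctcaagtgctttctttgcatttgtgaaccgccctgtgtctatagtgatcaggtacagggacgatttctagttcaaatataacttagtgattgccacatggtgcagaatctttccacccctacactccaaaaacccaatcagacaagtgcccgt
Capitals mark matches to 3 short motifs searched on both strands with no overlap between them: the short core of a cyclic AMP response element, spelled TGACG on one strand and CGTCA on the other, the motif of GATA factors, spelled AGATAA or else TTATCT, and the box that positions the start in many promoters, spelled TATAAA or else TTTATA. The Aqp2 window holds CGTCA beginning 226 bases before the start and TTATCT beginning 217 bases before it. The Aqp3 window holds TATAAA beginning 38 bases before the start, and neither Aqp4 window holds any of the 3. Over 33469 rat promoters, the first motif stood in 18.2%, the second in 10.3% and the third in 12.9% of windows of this length. A match is a description of letters and not a site of binding.

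None of the 10 genes differed between nephrectomized and sham kidneys by limma with Benjamini-Hochberg adjustment over 20925 features (0 of 10, with adjusted p between 0.170 and 0.940). Among all features, 217 passed, which is 1.04%, with 157 higher and 60 lower after nephrectomy. At an unadjusted limma p under 0.05 the count was 1 of 10 genes, Aqp4, against 16% of all features, and in 0 of 10 did the groups fail to overlap, against 11.1% of all features. All 10 genes passed the filter on dim probes, with a probe well above background on 8 of 8 arrays. Their differences were positive in 7 and negative in 3, with a median of 0.06 on the log2 scale. Over all features 52.5% of differences were positive and the median was 0.00884. The 95% limma intervals of all 10 together ran from 0.803-fold to 1.78-fold, and those of the 9 genes other than Aqp4 from 0.803-fold to 1.59-fold. A 2-fold difference in either direction thus lay outside the interval of each of the 10 genes, taken by its brightest tested probe. A dimmer Aqp4 probe, fitted on its own, had a 95% limma interval of 0.19 to 1.28 on the log2 scale, which holds a 2-fold rise. That probe was well above background on 4 of 4 nephrectomized but 2 of 4 sham arrays, so its sham values lie near the background.

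**Figure D1:**
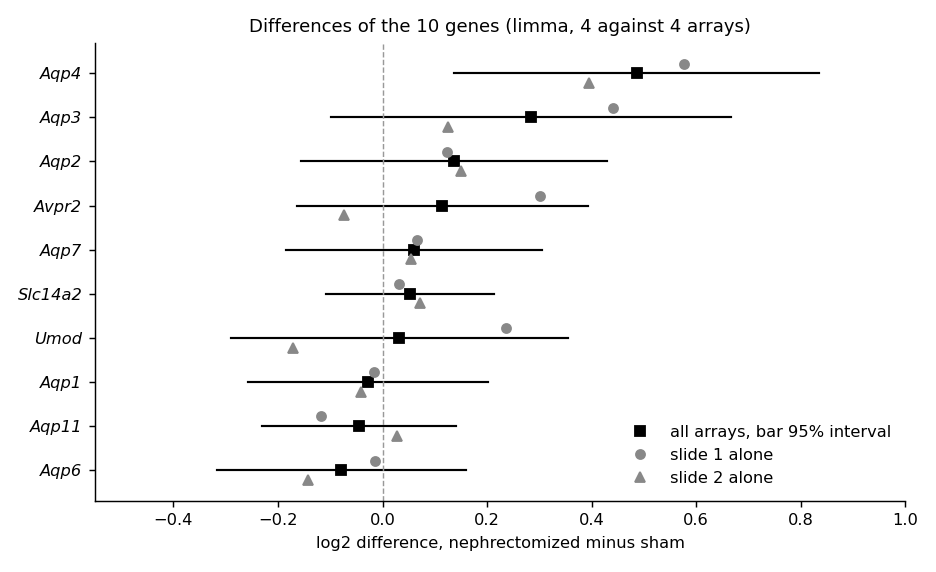
Differences of the 10 genes between nephrectomized and sham kidneys on the log2 scale (squares, with 95% limma intervals, 4 against 4 arrays), with the difference within slide 1 (circles) and slide 2 (triangles). The Aqp4 interval, 0.14 to 0.84, lies above 0 before adjustment, while the other 9 intervals span 0.

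Avpr2, the receptor through which vasopressin acts on the collecting duct, had relative signals of 2.18, 1.95, 1.67 and 1.87 in nephrectomized kidneys 1 to 4, against 1.88, 1.49, 2.09 and 1.65 in sham kidneys 1 to 4. The highest value was in nephrectomized kidney 1 and the lowest in sham kidney 2, and the groups overlapped. The difference was 0.11 ± 0.12 (SE) on the log2 scale, with a 95% interval of -0.16 to 0.39 and a limma adjusted p of 0.698. Within slide 1 it was 0.30 and within slide 2 it was -0.07.

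Aqp2, the water channel that vasopressin moves to the luminal membrane, had relative signals of 26.7, 28.2, 22.3 and 24.6 in nephrectomized kidneys, against 28.2, 22.5, 23.7 and 18.8 in sham kidneys. Sham kidney 1 stood with the highest nephrectomized kidneys and sham kidney 4 was the lowest of all, so the groups overlapped. Nephrectomized kidneys averaged 25.4 ± 2.57 and sham kidneys 23.3 ± 3.88 (SD, n = 4 each). The log2 difference was 0.14 ± 0.13 (SE; 95% interval -0.16 to 0.43; limma adjusted p = 0.649), and it was alike on the slides, 0.12 on slide 1 and 0.15 on slide 2. The Aqp2 probe is printed 10 times on each array. The SD over these spots was 0.0235 to 0.0519 on the log2 scale, below the SD between arrays of 0.15 for nephrectomized and 0.24 for sham kidneys. The spread over spots leaves out labelling and hybridisation, which the spread between arrays holds.

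Aqp3, an aquaglyceroporin of the blood-side membrane of principal cells, had relative signals of 26.7, 26.3, 21.0 and 20.6 in nephrectomized kidneys, against 25.6, 14.9, 19.5 and 18.6 in sham kidneys. Sham kidney 1 lay above nephrectomized kidneys 3 and 4, and the other 3 sham kidneys lay below every nephrectomized kidney. The log2 difference was 0.28 ± 0.17 (SE; 95% interval -0.10 to 0.67; limma adjusted p = 0.451). It was 0.44 on slide 1, which holds the lowest sham kidney, and 0.13 on slide 2.

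Aqp4, the other blood-side water channel of principal cells, is best known from astrocytes in the brain and lines the inner medullary collecting duct in the kidney. Its brightest probe had relative signals of 3.56, 4.18, 2.91 and 4.11 in nephrectomized kidneys, against 3.02, 2.22, 3.02 and 2.29 in sham kidneys. Nephrectomized kidneys 1, 2 and 4 exceeded every sham kidney, and nephrectomized kidney 3 lay below sham kidneys 1 and 3, so the groups overlapped by 1 kidney. The log2 difference was 0.49 ± 0.15 (SE), or 1.40-fold, with a 95% interval of 0.14 to 0.84. The unadjusted limma p was 0.0122 and the adjusted p was 0.170, so Aqp4 did not pass. In absolute size, 3.90% of all features had a larger difference. It was positive within each slide, 0.58 on slide 1 and 0.40 on slide 2.

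Aqp4 is also the gene with the most probes, 4 in all, of which 3 were tested. The second probe had relative signals of 0.478, 0.546, 0.367 and 0.479 in nephrectomized kidneys, against 0.472, 0.269, 0.378 and 0.292 in sham kidneys. The third had 0.0711, 0.115, 0.0640 and 0.102 in nephrectomized kidneys, against 0.0668, 0.0396, 0.0612 and 0.0429 in sham kidneys, and was well above background on 4 of 4 nephrectomized but 2 of 4 sham arrays. On all 3 tested probes, nephrectomized kidneys 1, 2 and 4 exceeded every sham kidney. With each probe fitted as its own feature, the log2 difference was 0.43 ± 0.19 for the second (limma adjusted p = 0.332) and 0.74 ± 0.24 for the third (limma adjusted p = 0.187), against 0.49 ± 0.15 for the brightest (SE; limma adjusted p = 0.178). Of all probes fitted this way, 0.825% passed, and none of these 3 did. The probes share their RNA and, by accession, their transcript, NM_001142366, so they are not independent measurements.

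The fourth Aqp4 probe carries the accession NM_012825 and was too dim to be tested, being well above background on 2 of 4 nephrectomized and 1 of 4 sham arrays. Its relative signals were 0.0509, 0.0806, 0.0469 and 0.0788 in nephrectomized kidneys, against 0.0355, 0.0322, 0.0539 and 0.0285 in sham kidneys. Its nephrectomized kidneys 2 and 4 were the highest, as on the brightest probe. Over its 7 to 10 usable spots per array the SD of single spots was between 0.13 and 0.49 on the log2 scale. The SD between arrays was 0.41 for nephrectomized and 0.40 for sham kidneys. An array's value is a mean over its spots, which varies less than single spots, so these SDs are not directly comparable.

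**Figure D2:**
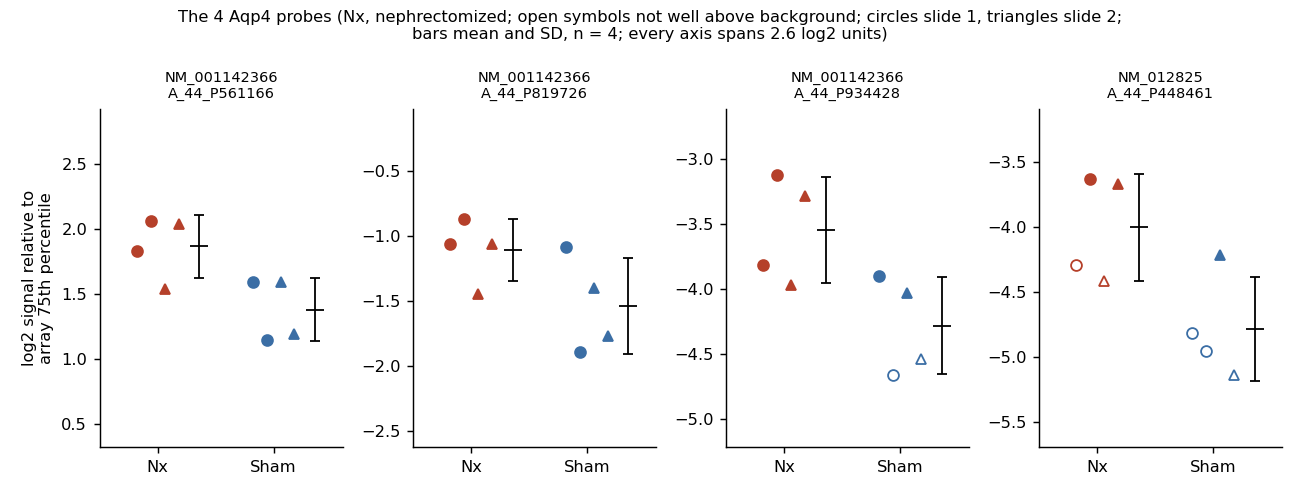
Log2 signal relative to the array's 75th percentile for the 4 Aqp4 probes, with nephrectomized kidneys (Nx) left of sham kidneys, open symbols for arrays where the probe was not well above background, and bars for the mean and SD (n = 4). On the first 3 probes, 3 of the 4 nephrectomized kidneys lie above every sham kidney and nephrectomized kidney 3 lies lower, among the sham kidneys.

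Aqp6, a vesicle channel of acid-secreting intercalated cells that also passes anions, had relative signals of 0.260, 0.251, 0.214 and 0.287 in nephrectomized kidneys, against 0.265, 0.251, 0.303 and 0.248 in sham kidneys. The extremes were nephrectomized kidney 3 and sham kidney 3, and the remaining 6 values lay between them. The log2 difference was -0.08 ± 0.10 (SE; 95% interval -0.32 to 0.16; limma adjusted p = 0.763).

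Slc14a2 encodes the urea transporters of the inner medullary collecting duct and thin descending limb, made as several transcripts. Its tested probe, for NM_177962, had relative signals of 0.146, 0.131, 0.150 and 0.142 in nephrectomized kidneys, against 0.145, 0.125, 0.138 and 0.140 in sham kidneys. The groups overlapped, and the log2 difference was 0.05 ± 0.07 (SE; 95% interval -0.11 to 0.21; limma adjusted p = 0.767), the narrowest interval of the 10 genes. The other probe, for NM_019347, was not well above background on any sham array and on 1 of 4 nephrectomized arrays. Its relative signals were 0.0130, 0.0103, 0.0136 and 0.217 in nephrectomized kidneys, against 0.0115, 0.0117, 0.0121 and 0.0111 in sham kidneys. The value of nephrectomized kidney 4 rests on 1 spot and stood apart from the 7 others, while on the tested probe the same kidney lay in the middle of the range.

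Aqp1, the constitutive water channel of the proximal tubule and thin descending limb, had relative signals of 82.4, 75.6, 73.6 and 67.7 in nephrectomized kidneys, against 78.7, 80.8, 63.5 and 83.0 in sham kidneys. All 4 nephrectomized kidneys lay within the range of the sham kidneys, and the log2 difference was -0.03 ± 0.10 (SE; 95% interval -0.26 to 0.20; limma adjusted p = 0.926). Its probe is also printed 10 times, with an SD over spots of 0.0204 to 0.0863 on the log2 scale, below the SD between arrays of 0.12 for nephrectomized and 0.18 for sham kidneys.

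Aqp7, the glycerol channel of the straight proximal tubule, had relative signals of 12.5, 11.3, 11.4 and 10.8 in nephrectomized kidneys, against 12.2, 10.6, 9.11 and 12.5 in sham kidneys. As for Aqp1, sham kidney 3 was the lowest and the nephrectomized kidneys lay inside the sham range. The log2 difference was 0.06 ± 0.11 (SE; 95% interval -0.18 to 0.31; limma adjusted p = 0.833). Aqp11, a channel of the endoplasmic reticulum of proximal tubule cells whose loss gives cystic kidneys in mice, had relative signals of 3.22, 2.84, 3.31 and 3.32 in nephrectomized kidneys, against 3.49, 3.08, 3.01 and 3.51 in sham kidneys. Its lowest value was in nephrectomized kidney 2 and its 2 highest were in sham kidneys 1 and 4, with a log2 difference of -0.05 ± 0.08 (SE; 95% interval -0.23 to 0.14; limma adjusted p = 0.835).

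Umod, made by the thick ascending limb and shed into urine as its most abundant protein, had relative signals of 559, 574, 474 and 362 in nephrectomized kidneys, against 464, 499, 443 and 491 in sham kidneys. Nephrectomized kidneys 1 and 2 lay above every sham kidney and nephrectomized kidney 4 lay below every one. The SD of relative signal was thus 97.2 around a mean of 492 in nephrectomized kidneys and 25.7 around a mean of 474 in sham kidneys (n = 4 each); the difference in spread was not tested. The log2 difference was 0.03 ± 0.14 (SE; 95% interval -0.29 to 0.35; limma adjusted p = 0.940), with 0.24 on slide 1 and -0.17 on slide 2.

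**Figure D3:**
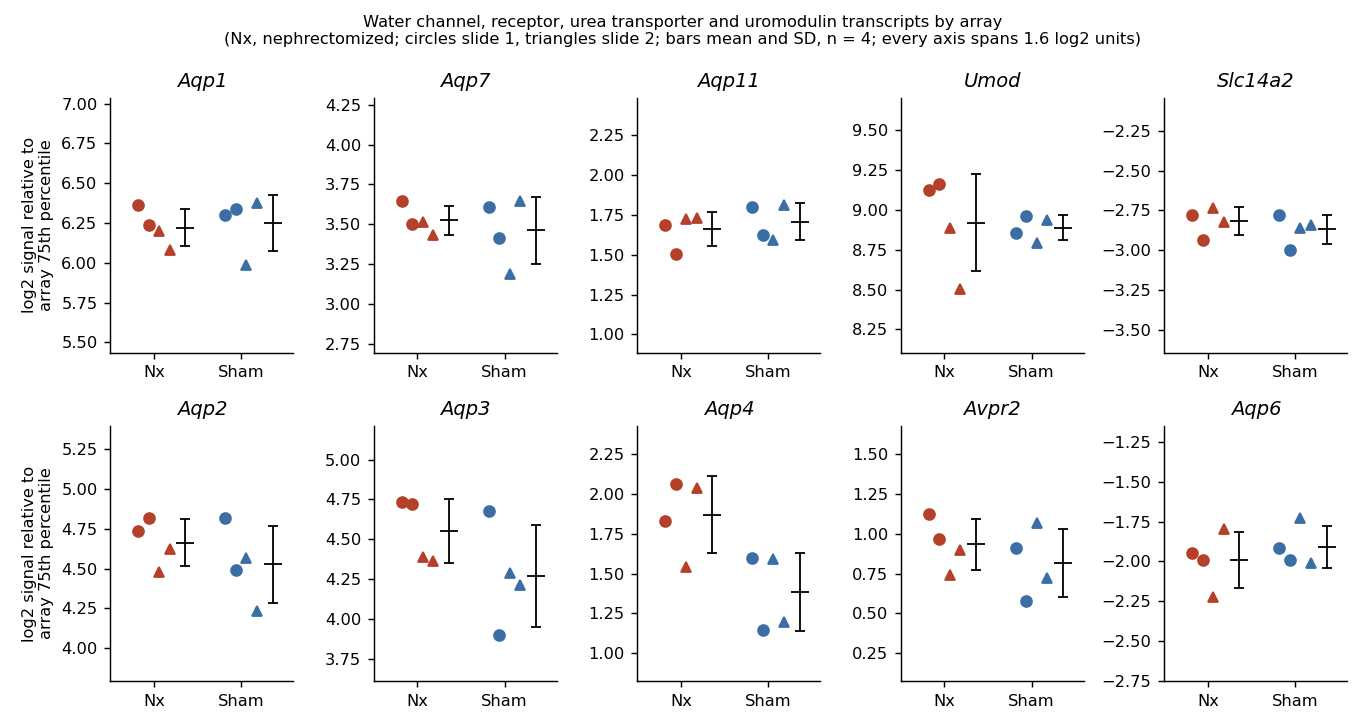
Log2 signal relative to the array's 75th percentile for the 10 genes in each kidney, with nephrectomized kidneys (Nx) left of sham kidneys, circles for slide 1, triangles for slide 2, and bars for the mean and SD (n = 4). The groups overlap in every panel, and in Aqp4 1 nephrectomized kidney lies among the sham kidneys.

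These are whole-tissue signals, so fewer cells of a type and less RNA per cell cannot be told apart. The markers of the cells that hold these channels were therefore set beside them. No principal cell marker passed (0 of 7 tested, median log2 difference -0.01), and the brightest, Hsd11b2, which keeps cortisol-like steroids from the aldosterone receptor, was at 0.05 ± 0.08 (SE). The summed relative signal of the 7 lay between 152 and 171 in nephrectomized and between 150 and 173 in sham kidneys. No intercalated cell marker passed (0 of 10, median -0.01), nor any proximal tubule marker (0 of 11, median -0.04). The inner medulla and thin limb list, also with no call (0 of 7, median 0.08), shares Akr1b1 with the organic osmolyte list below. Its summed relative signal varied more, between 39.0 and 94.8 in nephrectomized and between 44.2 and 78.6 in sham kidneys. Bright probes weigh most in such a sum. The mean log2 signal of the list lay between 0.708 and 1.05 in nephrectomized and between 0.699 and 1.03 in sham kidneys. That of the proximal tubule markers ranged as widely, from 4.74 to 5.10 in nephrectomized and from 4.77 to 5.15 in sham kidneys. The brightest gene of the inner medulla and thin limb list was Cryab, a small heat shock protein abundant in the inner medulla. Cryab had an SD of 0.68 in nephrectomized and 0.46 in sham kidneys on the log2 scale and a difference of 0.08 ± 0.35 (SE). The part of this spread in the values of Aqp4 and Slc14a2 was not tested.

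Markers of other cells were measured for the same reason. Of the 18 lists, with that of the 10 genes among them, only the leukocyte markers held calls, and the skeletal muscle list had no tested gene. All 6 tested leukocyte markers had a negative difference, with a median of -0.42. Of these 6, 3 were called lower after nephrectomy, beside 0.287% of all features called lower. Named after their values were seen, these were the neutrophil proteins S100a8 (-1.69 ± 0.25) and S100a9 (-1.40 ± 0.18) and the macrophage receptor Adgre1 (-0.51 ± 0.09; SE), while Lyz2, the brightest of the list, was at -0.04. The lists for endothelium (0 of 8 called, median 0.07; brightest Kdr, 0.14), podocytes (0 of 5, median 0.01; brightest Podxl, 0.01), red cells (0 of 3 tested, median 0.16; brightest Hbb, 0.19) and fat cells (0 of 3 tested, median 0.06; brightest Adipoq, 0.06) held none. Of 5 urothelium markers on the array 1 was tested, Upk1b, at -0.10. The skeletal muscle markers on the array, Acta1, Myh4 and Ckm, were well above background on 0 arrays.

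Beyond the 10 genes, 86 others of the same pathways were listed. The array held 80 of them, and 76 were tested. None passed by limma after adjustment (0 of 76, lowest adjusted p = 0.114), against 1.04% of all features. An unadjusted p under 0.05 was found in 11 of 76, against 16% of all features, and the groups did not overlap in 7 of 76, against 11.1% of all features, so neither share exceeded the background. Their differences were positive in 49 and negative in 27, between -0.28 and 0.44 on the log2 scale with a median of 0.05. Beside this count, and the counts of single lists below, stand 52.5% of all features with a positive difference. An excess of positive differences was not tested. The genes named next are those with the smallest unadjusted p of each list, and none of them is called.

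Of the other aquaporins and the second urea transporter, 3 of 7 were tested, and their median difference was -0.05. Slc14a1, the urea transporter of red cells and of the descending vasa recta, had relative signals of 0.127, 0.124, 0.102 and 0.106 in nephrectomized kidneys, against 0.137, 0.141, 0.136 and 0.133 in sham kidneys. All 4 nephrectomized kidneys lay below all 4 sham kidneys, at -0.26 ± 0.08 (SE; limma adjusted p = 0.176), beside 0.05 ± 0.07 for its neighbour Slc14a2. Beside it, the red cell markers had a median of 0.16 and the endothelium markers one of 0.07, and their part in this value was not tested. Aqp5, which lies between Aqp2 and Aqp6, was at 0.11 ± 0.18 (SE), with relative signals between 0.0754 and 0.128 in nephrectomized and between 0.0780 and 0.112 in sham kidneys. Mip and Aqp8 were well above background on 0 arrays and Aqp9 on 1 sham array.

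Of 21 genes of vasopressin receptor and cyclic AMP signalling 18 were tested, 14 of them with a positive difference, and the median was 0.09. Ptger4, a prostaglandin E2 receptor that raises cyclic AMP, had relative signals of 5.36, 4.51, 5.44 and 5.53 in nephrectomized kidneys, against 3.56, 3.61, 4.75 and 4.38 in sham kidneys. Nephrectomized kidney 2 lay below sham kidney 3, and the difference was 0.36 ± 0.11 (SE; limma adjusted p = 0.173). Pde4d, a phosphodiesterase that breaks down cyclic AMP, had relative signals of 0.993, 0.971, 0.893 and 0.944 in nephrectomized kidneys, against 1.14, 1.38, 1.11 and 1.02 in sham kidneys. These did not overlap, and the difference was -0.28 ± 0.10 (SE; limma adjusted p = 0.194).

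All 22 genes of Aqp2 trafficking and turnover were tested, with a median of 0.01. Rhoa, a small GTPase of the actin cortex that holds back Aqp2 vesicles, had relative signals of 6.65, 6.84, 7.01 and 7.12 in nephrectomized kidneys, against 6.39, 6.27, 6.01 and 6.16 in sham kidneys. These did not overlap either, with a difference of 0.15 ± 0.05 (SE; limma adjusted p = 0.199), and Ezr, which ties membranes to actin, was at 0.13 ± 0.09 (SE). Of 13 collecting duct transcription factors 10 were tested, with a median of -0.01. Gata2, which drives Aqp2 in mouse collecting duct, was at -0.13 ± 0.11 and Elf3 at 0.08 ± 0.08 (SE).

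Organic osmolyte genes, whose products protect medullary cells from high salt and urea, were all 6 tested, 4 with a positive difference, and had a median of 0.19. Akr1b1, aldose reductase, which makes sorbitol, had relative signals of 0.524, 0.515, 0.570 and 0.615 in nephrectomized kidneys, against 0.479, 0.460, 0.428 and 0.462 in sham kidneys. Every nephrectomized kidney lay above every sham kidney, and the difference was 0.28 ± 0.07 (SE; limma adjusted p = 0.114), the smallest adjusted p of the 76 genes. Hspa4l, a heat shock protein induced by osmotic stress, was at 0.21 ± 0.07 (SE; limma adjusted p = 0.193), with relative signals between 0.616 and 0.695 in nephrectomized and between 0.532 and 0.617 in sham kidneys. The brightest gene of the list, Nfat5, the factor that switches on osmolyte genes, was named after its values were seen: it lay the other way, at -0.13 ± 0.06 (SE; limma adjusted p = 0.310), also with no overlap between the groups.

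All 17 genes of the thick ascending limb and of uromodulin processing were tested, 13 with a positive difference and a median of 0.08. Ptger3, a prostaglandin E2 receptor that lowers cyclic AMP, had relative signals of 0.409, 0.438, 0.385 and 0.457 in nephrectomized kidneys, against 0.326, 0.365, 0.384 and 0.348 in sham kidneys, at 0.25 ± 0.08 (SE; limma adjusted p = 0.173). The lowest nephrectomized and the highest sham kidney nearly met. Tmprss2, a membrane serine protease, was at -0.17 ± 0.07 (SE; limma adjusted p = 0.310). The mean log2 signal of the 17 was 2.54, 2.53, 2.34 and 2.32 in nephrectomized kidneys 1 to 4, against 2.42, 2.34, 2.37 and 2.33 in sham kidneys 1 to 4. Nephrectomized kidneys 1 and 2 were the highest here, as they were for Umod. This was not particular to the thick ascending limb. The same kidneys were highest in the mean of the principal cell markers (2.92 and 2.90, next 2.83 in sham kidney 2). They were also highest in the mean of the 10 genes (2.85 and 2.80, next 2.79 in sham kidney 1). In the means of the intercalated cell and proximal tubule markers a sham kidney was highest.

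**Figure D4:**
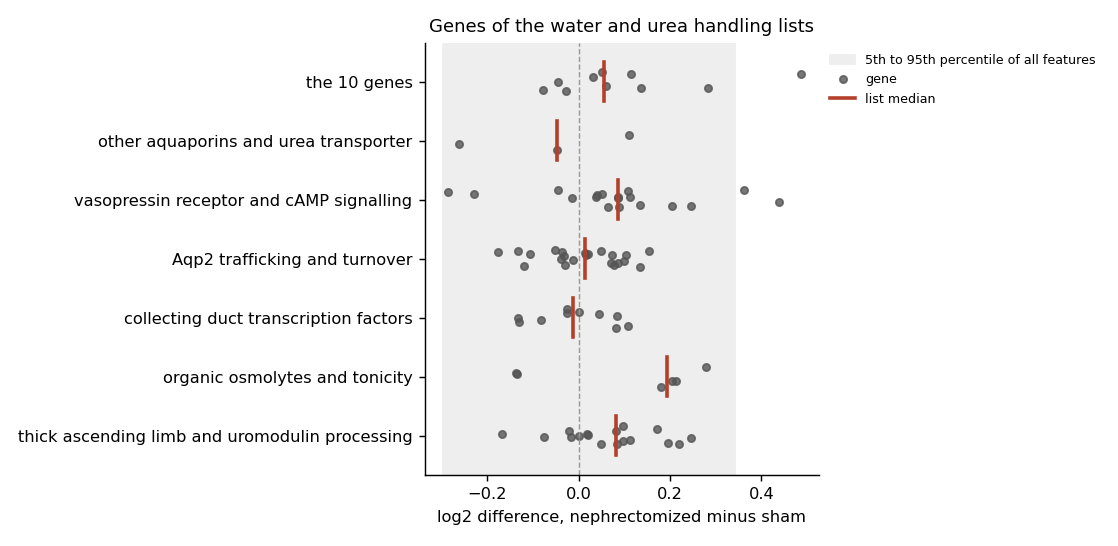
Log2 differences (nephrectomized minus sham) of the tested genes in the list of 10 and in the 6 other pathway lists, with each list's median as a red bar and the 5th to 95th percentile of all features, -0.30 to 0.34, shaded. Most points lie within the shaded range, and list medians run from -0.05 to 0.19.

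How the 10 genes varied together was examined over the 8 arrays in 45 pairs, by exact two-sided permutation of the pairing (40320 orders). None of the 45 passed after Benjamini-Hochberg adjustment by Pearson's r or by Spearman's rho, 5 had an unadjusted Pearson p under 0.05, and the median r was 0.09. The 3 water channels of the principal cell and Avpr2 gave 5 of the 6 highest values. Aqp2 and Aqp3 correlated at r = 0.75 and rho = 0.74 (exact permutation p = 0.0329 and 0.0458; adjusted 0.374 and 0.412), and r was 0.81 without the 2 arrays farthest from the median of Aqp2. Aqp2 and Aqp4 correlated at r = 0.73 and rho = 0.83 (exact permutation p = 0.0415 and 0.0154; adjusted 0.374 and 0.412), and r was 0.47 without the 2 farthest arrays.

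Aqp3 and Avpr2 correlated at r = 0.74 and rho = 0.74 (exact permutation p = 0.0333 and 0.0458, adjusted 0.374 and 0.412). Without the 2 arrays farthest from the median of Aqp3, r was 0.31. Leaving out the extreme arrays of a gene narrows its range, which can by itself lower r. Aqp3 and Aqp4 gave r = 0.73 and rho = 0.76 (exact permutation p = 0.0404 and 0.0368; adjusted 0.374 and 0.412), with r = 0.55 without the 2 farthest arrays. In the proximal tubule, Aqp1 and Aqp7 gave the highest value, r = 0.83 and rho = 0.74 (exact permutation p = 0.00846 and 0.0458; adjusted 0.374 and 0.412), and r was 0.46 without the 2 farthest arrays. Of these 5 pairs, Aqp2 with Aqp3 did not lose by leaving those arrays out. With slide means removed, r was 0.72 for Aqp2 with Aqp3, 0.87 for Aqp2 with Aqp4, 0.76 for Aqp3 with Avpr2, 0.74 for Aqp3 with Aqp4 and 0.83 for Aqp1 with Aqp7. With group means removed instead, r was 0.70, 0.74, 0.71, 0.60 and 0.88 for these pairs in the same order. Each slide alone holds 4 arrays, too few for a test, and values there differed between slides for some pairs. For Aqp3 with Avpr2, r was 0.94 on slide 1 and 0.00681 on slide 2, and for Aqp1 with Aqp7 it was 0.26 on slide 1 and 0.94 on slide 2. For the other 3 pairs r lay between 0.68 and 0.96 on each slide. The arrays of a slide were read together, and the scaling of an array enters the value of every gene on it; the part of this in r was not tested.

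**Figure D5:**
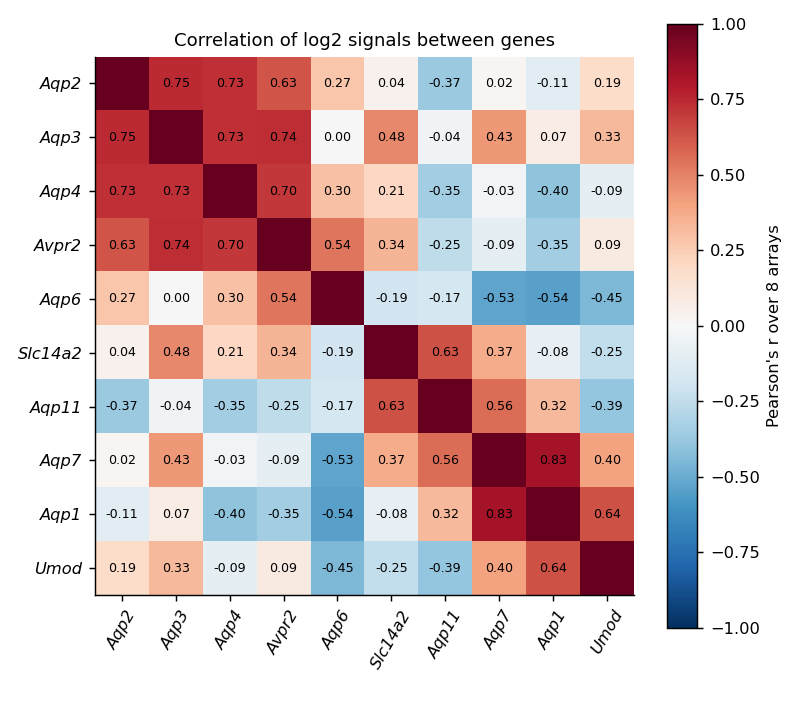
Pearson's r of log2 signals over the 8 arrays for each pair of the 10 genes, from -1 (blue) to 1 (red). Aqp2, Aqp3, Aqp4 and Avpr2 form a block with r between 0.63 and 0.75, and Aqp1 and Aqp7 reach 0.83. Outside the block, Aqp1 with Umod (0.636) and Aqp11 with Slc14a2 (0.634) lie above its lowest pair, Aqp2 with Avpr2 (0.627). None of the 45 pairs passed after adjustment.

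As a description with no test, the 2 named genes outside the lists whose log2 signals correlated best with each of the 10 over the 8 arrays were taken from 10056 genes searched. For Aqp2 these were Me2, a mitochondrial malic enzyme (r = 0.996), and Prom2 (0.983). For Aqp3 they were Apoa4, an apolipoprotein (0.985), and Mcoln3 (0.964), for Aqp4 Hk1, a hexokinase (0.963), and Proser3 (0.959), and for Avpr2 Nenf (0.946) and Dipk1b (0.926). For Aqp1 they were Plbd2 (0.981) and C1galt1c1 (0.977), for Aqp7 Mrpl41 (0.978) and Sppl2a (0.977), and for Aqp11 Serpinf1 (0.991) and Metap2 (0.978). For Aqp6 they were Tspyl4 (0.951) and Dnaaf1 (0.944), and for Slc14a2 Bst1 (0.967) and Naa20 (0.949). The genes closest to Umod were Rpl8 (0.977) and Rps23 (0.954), which encode ribosomal proteins. Values this high are the best of 10056 over 8 arrays, and none of these 20 genes differed between the groups by limma after adjustment.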

How the data were processed

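Total RNA was extracted with a silica column kit, amplified and labelled with Cy3, per the labels' protocols. The authors deposited 1 scanner file per array from Agilent Feature Extraction 10.5.1.1; its processed signal is a linear intensity, background-subtracted and not normalized between arrays, and its spot flags are 0 or 1, per the file headers. A series table of log2 values was also deposited. Its r with the scanner values, centred per probe, exceeded 0.999 and the slope was 1.00, so their scale, centring and direction are known; column medians were 0.00123, 0.0124, -0.000916 and 0.0153 for nephrectomized and -0.0145, -0.00231, -0.00103 and -0.00968 for sham replicates 1 to 4.

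Control spots (1639 of 45018) and outlier spots were left out, log2 values were averaged over a probe's spots, and the 75th percentile of the array was then subtracted. Tests took the 25219 of 41012 probes that cleared background on 4 or more of 8 arrays. Accessions were matched to RefSeq genes of GRCr8, which named 18713 probes, and each gene took its brightest tested probe. limma 3.58.1 in R 4.3.3 compared the 20925 features without covariates, with Benjamini-Hochberg adjustment and a threshold of 0.05. The steps were tested on simulated data. The labels name no animals, so the p-values reflect only the spread between these samples, which may be technical, and the number of arrays limits the precision.

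The genes and lists were chosen with earlier results of these data known. Named are the 10 genes with all their probes, any called gene of each pathway list or else the 2 with the smallest unadjusted p, the brightest marker of each cell type list, and the 2 genes most like each of the 10. Alternatives were other background corrections, scalings, filters, probe rules and variance settings, blocks for slide and replicate, the series table, and leaving out arrays. For normexp the median spot and background signals were used, with an offset of 50. No protein sequences and no genome of the array's own build were used here.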

Additional observations from a re-analysis of the deposited data

Results flagged for a closer look

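One probe value of the 10 genes stood far from the others of its group. The Slc14a2 probe for NM_019347 had a relative signal of 0.217 in nephrectomized kidney 4, while the other 3 nephrectomized kidneys lay between 0.0103 and 0.0136 and the 4 sham kidneys between 0.0111 and 0.0121. On the log2 scale, its gap to the nearest nephrectomized kidney was 0.908 of the group's range. The probe has 1 spot on each array and was well above background on that array only. The tested Slc14a2 probe, for NM_177962, had 0.142 in the same kidney, between the 0.131 and 0.150 of the other nephrectomized kidneys. Chance marks about 1 in 20 groups in this way, and 28 groups of 4 values were checked.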

How the results depend on the processing

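Under 23 alternatives, 0 of the 10 genes and 0 of the 76 other pathway genes passed by limma after adjustment. The count over all features, 217, was 394 with detection on all 8 arrays required, 20 with no filter, 532 with trend and robust variance, 508 with array weights and 100 with slide as a block. It was 0 within slide 1 and 0 within slide 2 (1884 and 1744 at an unadjusted limma p under 0.05), and between 22 (without sham kidney 2) and 197 (without nephrectomized kidney 1) with 1 array left out. Deviations of same-numbered kidneys from their group means correlated at r between -0.21 and 0.14. With 4 arrays per group this cannot settle whether the numbers pair the kidneys. With the replicate block the count was 10. Of 230 values of the 10 genes, 215 kept their sign. Normexp turned Aqp6 to 0.0498 and Umod to -0.0625, quantile scaling Umod to -0.0572 and array weights Umod to -0.0173. Within slide 2, Aqp11 was 0.0272, Avpr2 -0.0737 and Umod -0.170. With 1 array left out, Aqp1 ran from -0.115 (without sham kidney 3) to 0.0186 (without nephrectomized kidney 4), Aqp7 from -0.0311 (without sham kidney 3) to 0.122, Aqp11 from -0.0838 to 0.00774 (without nephrectomized kidney 2), and Umod from -0.0489 (without nephrectomized kidney 2) to 0.172 (without nephrectomized kidney 4). The other differences kept their sign but moved: Aqp2 ran from 0.0378 (without sham kidney 4) to 0.233 (without sham kidney 1), Aqp3 from 0.160 (without sham kidney 2) to 0.420, Avpr2 from 0.0331 (without sham kidney 2) to 0.196 (without sham kidney 3), Slc14a2 from 0.00926 (without sham kidney 2) to 0.0921 (without nephrectomized kidney 2) and Aqp6 from -0.143 to -0.000319 (without nephrectomized kidneys 4 and 3 in turn). The cause was not tested. Aqp4 stayed between 0.40 and 0.60 in these alternatives, with adjusted p between 0.0723 and 0.704. Dim signals limit the NM_012825 probe of Aqp4 and the NM_019347 probe of Slc14a2.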
